A study of Mus musculus with 617 samples.

Results

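Mouse cells differentiated toward spinal motor neurons were compared with the embryonic stem (ES) cells of the same lines kept in serum and leukemia inhibitory factor (LIF). The comparison takes every cell of the motor neuron cultures, 39 of a female and 35 of a male line, and every serum ES cell, 68 of the female and 52 of the male line, chosen by the labels alone. These are 194 of the 617 cells of the series. Both lines carry one genome from a CAST/EiJ father and one from a C57BL/6J mother, a hybrid background that all cultures share. Differentiation went through embryoid bodies treated with retinoic acid and SAG, an agonist of the hedgehog transducer smoothened, and per the labels' protocols it also yields several interneuron types. No sort for motor neurons is stated for the cells used here. There is 1 culture per line and state, so n is 2 cultures a side, sex and line cannot be told apart, and p-values cover only the spread between single cultures. Female and male cultures in other states were not compared: ES cells in 2i and LIF (60 and 51 cells) and cells labelled Epi (79 and 63 cells). They enter the choice of genes tested, the scaling and the estimate of the spread. Each cell was a SMART-seq2 library, a full-length poly(A) RNA protocol, tagmented with Tn5.

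Serum ES cells are pluripotent and divide rapidly. In the embryo, spinal motor neurons arise from ventral neural tube progenitors under retinoic acid, which favours caudal identity and acts through Hox genes, and sonic hedgehog from the floor plate and notochord. They leave the cell cycle, extend an axon to muscle, and release acetylcholine, which is made by choline acetyltransferase (Chat) and loaded into vesicles by Slc18a3. Retinoic acid and embryoid bodies also favour endoderm, a germ layer of secretory and absorptive epithelia marked by Sox17, Gata4 and Foxa2.

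Values were FPKM, fragments per kilobase of transcript scaled to the fragments sequenced. They were averaged over the cells of a culture and scaled so that the upper quartile over the genes tested was equal between cultures. The median change over the genes tested was then 0. A mean over cells cannot tell fewer cells with a transcript from less transcript per cell. Unless said otherwise, a pair of values is the female and then the male culture in scaled FPKM, and a log2 change is motor neuron minus serum on log2(scaled FPKM + 1), with its standard error (SE), which understates the change of low genes. A gene was called higher or lower where limma, fitted across all 15504 genes tested, gave a Benjamini-Hochberg adjusted p under 0.05 and the log2 change was at least 1 in size. The cells held a median of 9443.5 and 9645 genes at 1 FPKM or more in serum and 9313 and 9234 after differentiation, but deposited FPKM summed to medians of 862527 and 922930 per serum cell and 1332430 and 1478620 per motor neuron cell. Y-linked genes reached 1 FPKM in 51 of 52 and 33 of 35 male cells and in 4 of 68 and 0 of 39 female cells, where their sum was at most 3.05 FPKM against a median of 29.7 in male serum cells. No pair of cells held identical values.

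The microRNA genes of the miR-290 to miR-295 cluster were among the genes lost. The cluster, transcribed in pluripotent cells, lies on chromosome 7, and 6 of its genes were called lower. The mature arms are printed with the seed, bases 2 to 8 from the 5′ end, in capitals, because the seed sets which mRNAs a microRNA can pair with. Sequences and positions are RefSeq's on GRCm38.p6, plus strand, and all 12 genes of the list, miR-302 and miR-367 included, matched an entry.
mmu-miR-291a-3p, chr7:3218968-3218989: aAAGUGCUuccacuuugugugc
mmu-miR-294-3p, chr7:3220691-3220712: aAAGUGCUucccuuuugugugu
mmu-miR-295-3p, chr7:3220815-3220837: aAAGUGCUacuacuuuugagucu
mmu-miR-291b-3p, chr7:3219529-3219550: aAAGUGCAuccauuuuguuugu
mmu-miR-293-3p, chr7:3220390-3220411: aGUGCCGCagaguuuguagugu
mmu-miR-292a-5p, chr7:3219200-3219221: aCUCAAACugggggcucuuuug
mmu-miR-293-5p, chr7:3220356-3220377: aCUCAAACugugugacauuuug
The seed AAGUGCU is shared by the first 3 of these, and over the whole list by 5 of 22 mature arms, the other two being miR-302b-3p and miR-302d-3p of genes that were not called. Both 5p arms shown share CUCAAAC.

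The hairpin genes called stood higher in serum than in motor neuron cultures. Mir295 stood at 4637 and 2289 in serum and at 43.4 and 0 after differentiation, Mir294 at 790.0 and 439 against 22.3 and 0, and Mir293 at 595 and 452 against 5.93 and 0. The male motor neuron culture listed all 3 at 0. The log2 change was -8.93 ± 1.78 SE (limma adjusted p = 0.0163) for Mir295, -6.93 ± 1.38 SE (adjusted p = 0.0165) for Mir294 and -7.62 ± 0.96 SE (adjusted p = 0.00575) for Mir293. Mir291b fell from 225.3 and 251.5 to 10.4 and 0, while Mir291a and Mir292 were listed at 0 in both motor neuron cultures. Mir290a and the miR-302 and miR-367 genes were not called. Over the 12 genes the median log2 change was -4.07, but -0.29 with log2 values averaged over cells. The size of these falls thus depends on how the cells are averaged. Of the 12 genes 2 were called when the female serum culture was left out, 0 when the male one was, and 4 when the male motor neuron culture was. These exons are 69 to 84 bases long (Mir295 and Mir294), where FPKM is unsteady, and a poly(A) library reads the host transcript, not the mature microRNA.

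Short stretches of the promoters of DNA replication and ribosomal protein genes are shown because these families fell together and carry well-known promoter motifs. Promoters are RefSeq's on GRCm38.p6, from 250 bases before to 50 after the start. The E2F motif, TTTCCCGC or TTTGGCGC on either strand, is bound by E2F factors, which drive S phase genes. It is in capitals in these genes called lower, and each stretch runs in the direction of the gene.
Pole2, chr12:69228162-69228191, minus strand: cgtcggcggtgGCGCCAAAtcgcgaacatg
Mcm5, chr8:75109349-75109378, plus strand: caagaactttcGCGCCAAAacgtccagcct
Mcm6, chr1:128359797-128359826, minus strand: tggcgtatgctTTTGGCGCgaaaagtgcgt
Cdt1, chr8:122568035-122568064, plus strand: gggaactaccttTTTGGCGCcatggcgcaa
The motif stood in 14 of 42 replication genes with a promoter (33.3%), against 3.502% of the 10108 tested genes with one and 1.80% of all 27025 genes. Condensin and cohesin genes held it in 6 of 15 promoters and G1 cyclin, Myc and E2F genes in 5 of 16, but mitosis genes in 3 of 45 and nucleotide synthesis genes in 2 of 33. It stood in 5.73% of the genes called lower and 2.17% of those called higher. A run of at least 8 pyrimidines (C or T on the sense strand) that reaches into the 10 bases on either side of the start is in capitals in 4 ribosomal protein genes called lower. Such a run is typical of mRNAs whose translation follows growth signals.
Rpl39, chrX:37085208-37085237, minus strand: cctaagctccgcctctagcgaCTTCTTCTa
Rplp2, chr7:141447636-141447665, plus strand: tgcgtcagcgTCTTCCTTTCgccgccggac
Rpl18, chr7:45718056-45718085, plus strand: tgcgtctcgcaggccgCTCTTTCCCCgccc
Fau, chr19:6057932-6057961, plus strand: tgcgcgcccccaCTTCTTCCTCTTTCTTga
The run stood in 28 of 57 ribosomal protein genes with a promoter (49.1%), against 16.7% of tested genes and 15.8% of all genes. The octamer (ATGCAAAT) was searched on both strands too, and stood in 1.68% of genes called higher and 1.81% called lower, against 1.66% of tested genes. These matches describe letters in a window and show no binding.

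Of 15504 genes, 2183 were called higher (14.1%) and 1611 lower (10.4%), 24.5% in either direction. Higher calls were 57.5% of all calls, but 91.8% on the deposited FPKM scale, where the median gene shifted by 0.71 log2 units and 4669 genes were higher and 419 lower. With each cell rescaled to an equal sum they were 70.1%, to an equal protein-coding sum 68.9%, and with log2 values averaged over cells 39.1%. Changes are therefore described relative to the median gene. The counts were lowest without a serum culture: 2.95% of tested genes were called higher and 1.67% lower without the female one, and 1.47% and 0.49% without the male one. They were 1410 and 949 without the female 2i culture, 1410 and 957 without the male 2i culture, and 1803 and 980 without the male motor neuron culture. The 2i and Epi cultures enter the low-value filter, the common level of the scaling and the estimate of the spread. With the same filter and scaling, 1261 and 1005 genes were called with the 4 compared cultures alone. No gene called with all cultures was called in the opposite direction under any of these settings.

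The protein-coding genes that rose most encode a neuropeptide, a calcium-binding protein of absorptive epithelium, and neuronal cytoskeletal and secretory proteins. Cartpt, the precursor of the CART neuropeptide (chr13:99898489-99901091), was at 0.032 and 0 in serum and at 1488 and 1826 after differentiation. The log2 change was 10.67 ± 0.25 SE (limma adjusted p = 7.2e-05). It reached 1 FPKM in 92.3% and 97.1% of motor neuron cells, but 5 cells held 88.9% and 61.9% of its sum. S100g, a calcium-binding protein of gut and yolk sac epithelium (chrX:162961992-162964599), was at 4.80 and 0.913 in serum and 1956 and 2523 after differentiation, a log2 change of 9.38 ± 1.30 SE (adjusted p = 0.00696). It too was detected in most cells of each motor neuron culture, 94.9% and 97.1%, with 76.5% and 79.2% of the sum in 5 cells. Cartpt and S100g were both detected in 34 of 39 female and 33 of 35 male cells, so low levels of both lay in most cells and high levels in few. Whether free RNA or mixing between wells adds to the low levels was not tested.

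Sncg, a synuclein of peripheral and motor neurons, stood at 8.63 and 4.504 in serum and 841 and 2112 after differentiation. Nefm, a neurofilament subunit (chr14:68082590-68124846), stood at 1.12 and 0.356 against 205 and 329.7, and Gap43, a growth cone protein, at 7.13 and 3.29 against 623 and 929. The log2 changes were 7.52 ± 0.97 SE (adjusted p = 0.00612) for Sncg, 7.27 ± 0.58 SE (adjusted p = 0.00338) for Nefm and 7.01 ± 0.69 SE (adjusted p = 0.00421) for Gap43. Cryab, a small heat shock protein, and Hs3st1, a heparan sulfate sulfotransferase, rose by 7.36 ± 0.76 SE and 7.16 ± 0.70 SE. Resp18, a granule protein, and Stmn4, a tubulin-binding stathmin, rose by 7.15 ± 0.36 SE and 7.13 ± 0.44 SE, and Fxyd7, a regulator of the sodium pump, by 7.23 ± 0.39 SE. Fxyd3 and Uts2b were listed at 0 in both serum cultures and reached 106.4 and 410.6, and 105.9 and 160.7. Uts2b, a urotensin-related peptide precursor, was a matter of few cells: 5 cells held 99.6% and 100% of its sum, and in the male culture it reached 5516 in one cell.

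Among protein-coding genes the largest falls included genes of the pluripotent state. Pou5f1, the Oct4 transcription factor (chr17:35506018-35510772), was at 619.9 and 747 in serum and at 38.8 and 0.266 after differentiation. All serum cells held it at 1 FPKM or more, against 43.6% of female and 5.71% of male motor neuron cells. The log2 change was -6.58 ± 1.495 SE (limma adjusted p = 0.0236), and both lines moved the same way, by -3.96 and -9.21. Nanog (chr6:122707489-122714633) went from 117.5 and 116.4 to 4.70 and 0.118, and Tdgf1, the Nodal co-receptor Cripto, from 211 and 348.4 to 21.9 and 0.416. In the female motor neuron culture 5 cells held 81.7% of the Pou5f1 sum and 97.9% of the Tdgf1 sum. Eras, a Ras protein of ES cells, fell by 4.90 ± 0.84 SE on the log2 scale, the zinc finger factor Zscan10 by 4.61 ± 0.67 SE, and Foxh1, the Smad partner in Nodal signalling, by 4.42 ± 0.99 SE. Metabolic genes were also among these falls: Slc7a3, a cationic amino acid transporter, went from 478 and 263.9 to 14.8 and 8.72, and Upp1, uridine phosphorylase, from 319.8 and 472 to 18.8 and 9.20. Ltbp4, a TGF-beta binding protein, Pla2g10, a secreted phospholipase, and Sept1, a septin, changed by -5.05, -4.88 and -4.597. Gm6020, a model of 66 bases, was listed at 0 in both motor neuron cultures and above 1 FPKM in only 4.41% and 5.77% of serum cells. Of the 24 leading genes, 13 were still called without the female serum culture, 11 without the male one, 18 without either 2i culture, 21 and 17 without the female and the male motor neuron culture, and 20 with the 4 cultures alone.

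**Figure D1:**
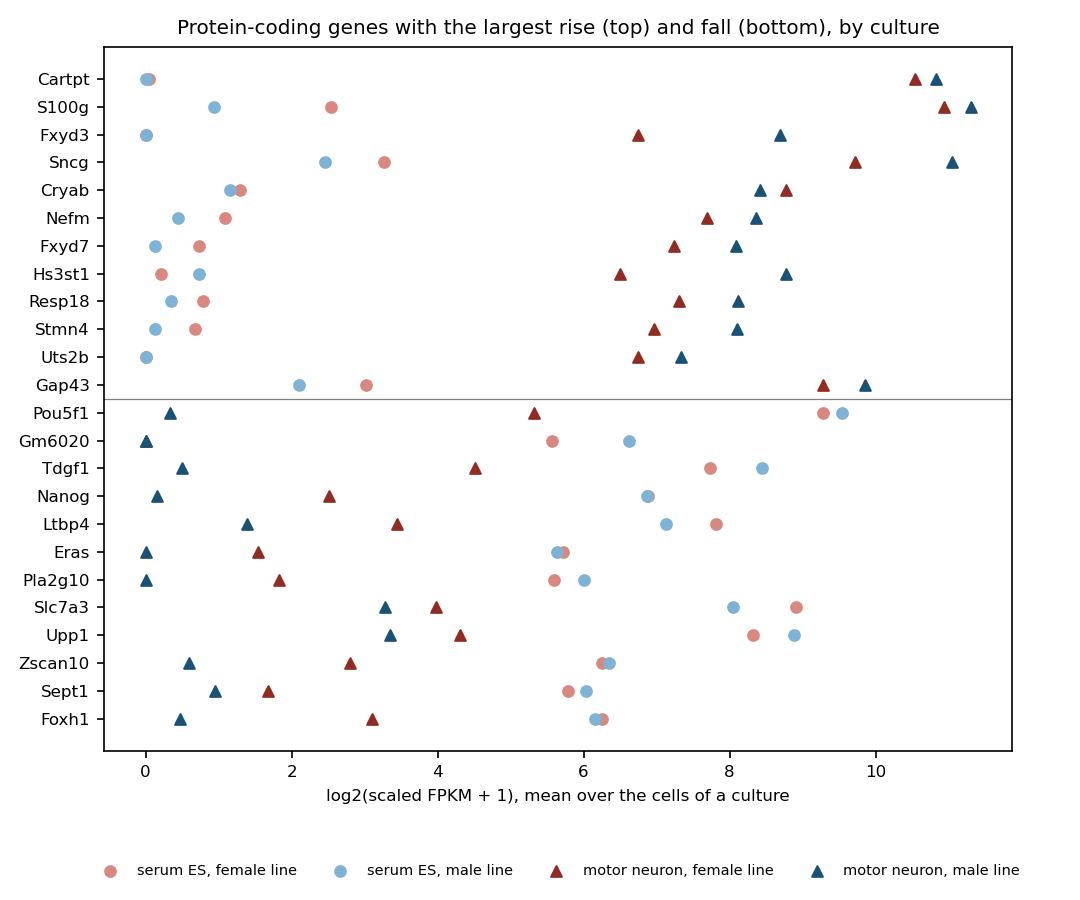
Mean log2(scaled FPKM + 1) in each of the 4 cultures (circles serum ES, triangles motor neuron, red female line, blue male line) for the 12 protein-coding genes with the largest rise (top) and the 12 with the largest fall (bottom) among those at 10 scaled FPKM or more in the higher state of each line. These genes were picked by the size of a called change, so the gap between serum and motor neuron cultures follows from the choice. After differentiation the female line kept more of the pluripotency genes than the male line, as with Pou5f1 at 38.8 against 0.266 scaled FPKM.

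Genes of the neuronal cytoskeleton and neuronal RNA-binding proteins were a nearly one-sided gain. Of 28 microtubule and neurofilament genes, 21 rose and none fell, with a median log2 change of 4.00, against 14.1% higher and a median of 0 over all genes tested. Stmn3, a stathmin that binds tubulin, went from 7.65 and 3.88 to 469 and 862 (log2 change 6.61 ± 0.40 SE, adjusted p = 0.00253). Nefl, the light neurofilament, went from 9.27 and 4.81 to 335.7 and 716 and was detected in 94.9% and 91.4% of motor neuron cells. Tubb3, the neuronal beta tubulin, was already at 33.8 and 25.02 in serum and rose to 371 and 965. Dcx, doublecortin, which marks young neurons, was detected in no serum cell and in 38.5% and 62.9% of motor neuron cells.

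RNA-binding proteins that shape neuronal splicing and mRNA stability followed: 16 of 25 rose, none fell, and the median was 1.81. Elavl4, the neuronal protein HuD, went from 3.98 and 6.20 to 82.7 and 358, Rbfox1, a splicing regulator, from 0.024 and 0.199 to 20.6 and 34.3, and Elavl3 from 0.331 and 0.89 to 19.4 and 17.8. Celf3 stood at 0.013 and 0 against 4.43 and 15.3. These 4 genes were named for their rise, so the gap between their serum and motor neuron values follows from the choice. Both medians were above 0 under every scaling. The 37 calls among the 53 genes of both lists became 14 without the female and 12 without the male serum culture.

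Synaptic and secretory genes that passed the filter also rose in large part. Of 30 genes of vesicle release tested, of 37 in the table, 19 rose and none fell (median 1.74). Snap25, a membrane fusion protein of the presynapse, went from 0.396 and 0.908 to 65.9 and 144.9 (log2 change 5.92 ± 0.46 SE, adjusted p = 0.00331), Rab3a, a vesicle GTPase, from 3.11 and 6.25 to 91.02 and 141.4, and Syp, synaptophysin, from 0.778 and 0.99 to 24.6 and 54.4. Synaptotagmins include the calcium sensors of release, and their list here also holds synaptotagmin-like genes. Of its 13 genes tested, of 22 in the table, 6 rose and 1 fell. Syt4 went from 0.654 and 0.58 to 154.1 and 199 and Syt1 from 0.067 and 0.0096 to 17.6 and 36.7. The gene that fell, by 2.73 ± 0.77 SE, was Sytl3, a synaptotagmin-like gene and not a synaptotagmin.

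Neuropeptide precursors and dense-core granule proteins were more divided. Of 25 tested, of 35 in the table, 16 rose and 2 fell (median 3.08), led by Cartpt, Sncg and Resp18. Sncg, a synuclein, is on this list but is neither a peptide precursor nor a granule protein. Scg5, a chaperone of the convertase Pcsk2, went from 0.463 and 0.392 to 62.97 and 185.9. The precursors that fell were Trh, from 21.9 and 33.4 to 1.58 and 4.99, and Calca, from 48.1 and 43.6 to 17.3 and 6.07, the latter being a peptide gene that motor neurons are also known to use. Only 10 of 24 genes of transmitter synthesis and transport passed the filter, and 6 of them rose. A gene that passed only through the motor neuron cultures had to be high there. The shares in the synaptic and secretory lists therefore describe the genes tested and not the families. Genes by which acetylcholine is made, loaded and broken down rose: Slc18a3 went from 0.821 and 0.043 to 24.1 and 93.5, the choline transporter Slc5a7 from 0.027 and 0.029 to 6.05 and 9.89, Chat from 0.0055 and 0.0021 to 2.02 and 5.71, and Ache, acetylcholinesterase, from 0.527 and 0.12 to 11.7 and 52.1. All 4 list medians were above 0 under every scaling. The 47 higher calls among the 78 genes of these lists became 20 and 14 without the female and the male serum culture.

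Genes of excitability were largely outside the test because of low levels. Only 22 of 92 potassium channel genes in the table passed the filter, and 6 of them rose and 1 fell. Of 7 sodium channel genes tested 4 rose, of 9 calcium channel genes 5, of 8 glutamate receptor genes 7, of 6 nicotinic receptor genes 3 and of 3 GABA-A and glycine receptor genes 2. A gene that passed the filter only through the motor neuron cultures had to be high there, so these shares describe the genes tested and not the families. Scn3b, a sodium channel beta subunit, went from 0.982 and 0.123 to 14.4 and 26.9, and Cacng5, an auxiliary subunit, from 0.0030 and 0.0020 to 11.4 and 38.5. Gria2, the AMPA receptor subunit that limits calcium entry, went from 0.011 and 0.017 to 11.0 and 19.9. Chrna3, a ganglionic nicotinic subunit, went from 0.0030 and 0 to 3.91 and 21.5. Kcnk1, a two-pore channel, fell from 16.9 and 23.5 to 8.88 and 5.16. Without the female or the male serum culture 7 and 3 of the 27 higher calls were made, and 13 with log2 values averaged over cells.

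Genes by which axons find their way and neurons adhere were called higher in part. As with the channels, many were low in serum, where a fall of the required size could not be seen, and those tested are not the whole families. Among guidance cues 14 of 30 ligands and 9 of 23 receptors tested rose, with medians of 1.54 and 1.21. Slit2 and Slit3, repellents that motor neurons are known to secrete, went from 0.577 and 1.17 to 14.4 and 37.1, and from 0.571 and 0.472 to 7.42 and 29.5. Their receptor Robo2 went from 0.109 and 0.205 to 18.6 and 34.2, and Nrp1, a semaphorin receptor, from 0.184 and 0.098 to 27.6 and 22.6. Of 26 neural adhesion molecules tested, of 40 listed, 18 rose (median 2.50): L1cam went from 1.77 and 0.469 to 29.9 and 62.2, and Ncam1 from 3.26 and 1.45 to 41.5 and 95.1.

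Cadherins were called in both directions. Of 10 tested, 5 rose and 1 fell. Cdh13 and Cdh6 went from 0.212 and 0.059 to 14.0 and 46.8, and from 0.081 and 0.022 to 14.0 and 12.2, and Cdh1, the E-cadherin of ES cell colonies, fell from 30.4 and 34.2 to 10.2 and 2.94 (log2 change -2.32 ± 0.51 SE, adjusted p = 0.0211). Pcdha4 and Pcdha11 rose alike, by 2.53 and 2.52, but share constant exons, so reads cannot be assigned to one of them. The medians of the guidance and adhesion lists were above 0 under every scaling. The 51 higher calls of these lists became 13 and 6 without the female and the male serum culture.

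Hox genes, which set position along the body axis, rose only in part. Only 18 of 39 Hox genes passed the filter and 7 of them rose. Their sum in serum was 8.57 and 11.2, so a fall of the required size was out of reach for many, and the median of 2.16 describes only the genes tested. The called genes were of paralogue groups 2 to 5: Hoxb5 went from 0.302 and 0.44 to 29.5 and 55.2 (log2 change 4.92 ± 0.37 SE, adjusted p = 0.00304), Hoxa5 from 0.118 and 0.467 to 27.1 and 12.9, Hoxc4 from 0.107 and 0.126 to 16.6 and 6.38, and Hoxb4 from 0.095 and 0.164 to 5.74 and 10.2. Hoxa2, Hoxa3 and Hoxb2 were the other three. With the male motor neuron culture left out 13 were called, with the female serum culture left out 3, and with the male one 2. Of 12 Hox cofactors 6 rose, with Meis1 going from 0.764 and 0.857 to 38.7 and 57.98 and Meis3 from 1.87 and 1.02 to 43.04 and 86.1.

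Transcription factors of spinal neurons moved both ways. Isl1, which specifies motor neurons, went from 0.085 and 0.051 to 95.4 and 113.3 (log2 change 6.62 ± 0.47 SE, adjusted p = 0.00298) and was detected in 43.6% and 62.9% of motor neuron cells. Onecut2 and Sox11 rose to 14.3 and 9.45 and to 44.7 and 74.8. Nhlh2 was listed at 0 in serum and reached 5.17 and 27.8. Pax6, a progenitor factor, fell from 4.88 and 3.31 to 0.565 and 0.096, and Olig1 from 3.98 and 15.1 to 0.226 and 0. Of 18 spinal homeodomain genes tested, of 54 in the table, 7 rose and 1 fell. Of 20 proneural and neuronal factors tested, of 50 in the table, 7 rose and 3 fell. A gene that passed the filter only through the motor neuron cultures had to be high there. The shares and the sign of the medians therefore describe the genes tested and not the families. The list medians, 1.48 and 0.72, were above 0 under every scaling, and the 27 higher calls of the Hox, cofactor and these 2 lists became 8 and 6 without the female and the male serum culture.

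Readouts of the inducing agents were unequal. Of 18 retinoid genes 9 rose and 1 fell (median 1.96, above 0 under every scaling). Stra6, the retinol uptake receptor, went from 0.606 and 0.591 to 17.8 and 38.4, and Nr2f1 from 0.082 and 0.6 to 15.6 and 6.91. Rarg, a retinoic acid receptor, fell from 29.01 and 38.3 to 3.12 and 0.79. Hedgehog genes showed no common direction: 3 of 12 rose, and their median was -0.22, but 0.43 on the deposited scale. Those called were Foxa2, Scube2 and Ihh, of which Foxa2 and Ihh are also endoderm genes. Of 21 Notch genes 1 rose, the neuronal ligand Dner, and 1 fell, the glycosyltransferase Mfng. Of 10 Wnt ligands 2 rose, Wnt4 and Wnt7a, and of 12 frizzled and antagonist genes 2, Dkk3 and Fzd3. The 17 higher calls of these 5 lists became 1 and 2 without the female and the male serum culture, 10 without either 2i culture, 11 without the female motor neuron culture, 26 on the deposited scale and 11 with log2 values averaged over cells.

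**Figure D2:**
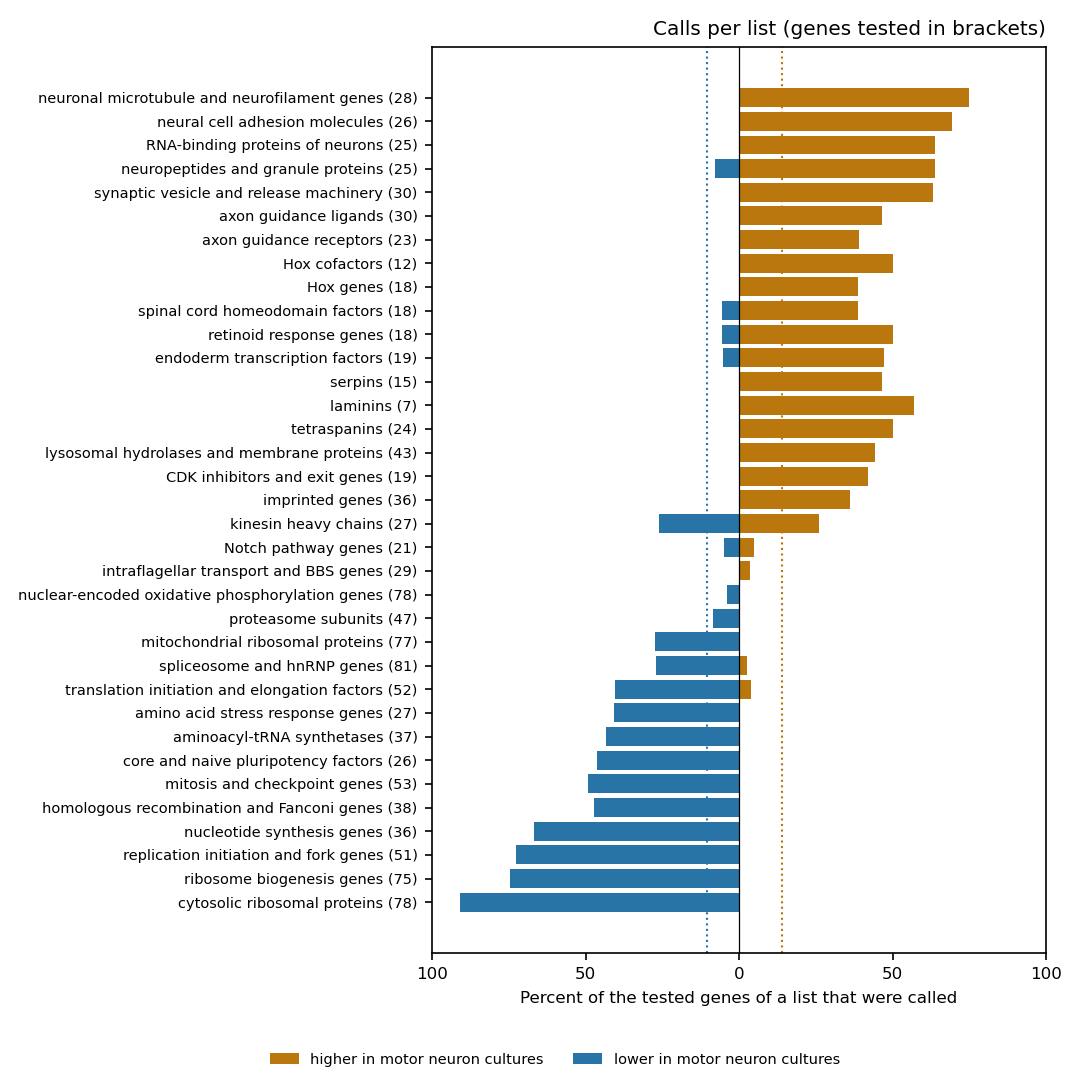
Share of the tested genes of each list that were called higher (right, ochre) or lower (left, blue) in motor neuron cultures, with the number tested in brackets and dotted lines at the share over all genes, 14.1% and 10.4%. The topmost list, microtubule and neurofilament genes, reaches 75% higher, and the lowest, cytosolic ribosomal proteins, 91.03% lower.

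Endoderm genes rose beside the neuronal ones. Of 19 endoderm transcription factors 9 rose and 1 fell (median 1.55). Sox17 went from 0.291 and 0.013 to 66.2 and 206 (log2 change 6.69 ± 1.79 SE, adjusted p = 0.0380) and was detected in 48.7% of female and 91.4% of male motor neuron cells. Foxa2 was at 0 and 0.050 against 29.5 and 34.4, and Gata4 at 0.059 and 0.149 against 30.9 and 32.4. The factor that fell was Foxh1. The median was above 0 under every scaling, but 0 of these genes were called without one or the other serum culture and 2 without the male motor neuron culture.

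Products of absorptive and secretory epithelium followed in part. Of 15 genes of absorptive epithelium and endocytosis 6 rose and 1 fell. Besides S100g, Cited1 went from 6.12 and 5.04 to 362 and 666, Spink1, a trypsin inhibitor, from 25.5 and 7.60 to 975 and 473, and Dab2, an endocytic adaptor, from 2.08 and 2.98 to 66.2 and 332. Of 15 serpins tested, of 61 in the table, 7 rose, led by the collagen chaperone Serpinh1 (37.95 and 40.7 against 305.1 and 535). As with the synaptic lists, these shares describe the genes tested and not the families. The keratins Krt8 and Krt19 rose by 4.40 ± 1.03 SE and 3.702 ± 0.53 SE. Ttr, the thyroid hormone carrier, went from 0.0068 and 0 to 14.7 and 67.1. Apolipoproteins did not share this: 1 of 9, Apoa2, fell, from 81.6 and 148.1 to 19.11 and 12.1, and Apoe stood at 1501 and 1443 against 371 and 46.9 without being called (adjusted p = 0.0619, and 0.0386 with the line as replicate block). Afp and Apob, markers of visceral endoderm and liver, did not pass the filter, and Hnf4a, at 0.658 and 4.16 after differentiation, was not called. The 27 higher calls over 80 genes of the endoderm lists became 4 and 1 without the female and the male serum culture.

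Basement membrane genes led the matrix genes that rose. Lama1, Lamb1 and Lamc1, the chains of laminin-111, went from 0.337 and 0.796 to 54.4 and 96.1, from 14.3 and 15.7 to 174.3 and 263.6, and from 29.9 and 24.4 to 218 and 233.5. Col4a1 and Col4a2, which form collagen IV, went from 0.813 and 0.735 to 129.1 and 173.7, and from 0.455 and 0.57 to 85.03 and 103.7 (log2 change 5.97 ± 0.56 SE, adjusted p = 0.00418). Of 7 laminins tested, of 11 in the table, 4 rose, and of 18 collagens tested, of 44 in the table, 3. Of 31 other matrix genes tested, of 44 in the table, 12 rose. None fell in these lists, and the genes tested are not the whole families. Sparc, a collagen-binding protein, went from 223 and 173.8 to 1311 and 3712, and Spon2, an extracellular guidance protein, from 0.251 and 0.449 to 33.8 and 47.2. List medians were above 0 under every scaling, but the collagen median was 2.21 in the female and -0.25 in the male line. Col1a1, the fibroblast collagen, was at 2.45 and 1.80 in serum and at 50.6 and 0.609 after differentiation, not called. The 20 calls over 68 matrix genes became 8 without the female and 8 without the male serum culture, and 32 on the deposited scale.

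Cells of each motor neuron culture ran from a high neuron and low endoderm score to the reverse. The score of a cell was the mean log2(FPKM rescaled to a sum of 1000000 + 1) over the 14 neuron or the 20 endoderm markers. In the female motor neuron culture 15 of 39 cells lay above every serum cell for neuron markers alone, 14 for endoderm markers alone, 5 for both and 5 for neither. In the male culture the counts were 12, 8, 15 and 0 of 35. These classes are ranges of a score: 21 of the female and 11 of the male cells lay within 0.5 of one of the 2 limits. The neuron score ran from 0.77 to 8.65 with a median of 2.70 in the female and from 0.58 to 8.74 with a median of 5.59 in the male culture, against a highest serum cell of 2.70. The endoderm score ran to 5.53 and 5.37, against 2.38. Across cells Spearman's rho between the scores was -0.69 (n = 39) and -0.80 (n = 35), given as a description because both scores of a cell come from the same library and scaling. A like score over the 10 pluripotency markers ran from 0.43 to 6.34 in the female and from 0 to 1.97 in the male motor neuron culture. Serum cells ran from 4.24 to 8.305. Some female cells thus lay in the serum range. They included cells counted for neuron markers alone, such as a cell with a neuron score of 3.30 and a pluripotency score of 6.25. Isl1 and Sox17 were both detected in 5 of 39 female cells (12.8%, exact 95% interval 4.30 to 27.4) and in 19 of 35 male cells (54.3%, 36.7 to 71.2). The intervals cover counting error only, and whether shared wells or free RNA put both in 1 library was not tested.

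**Figure D3:**
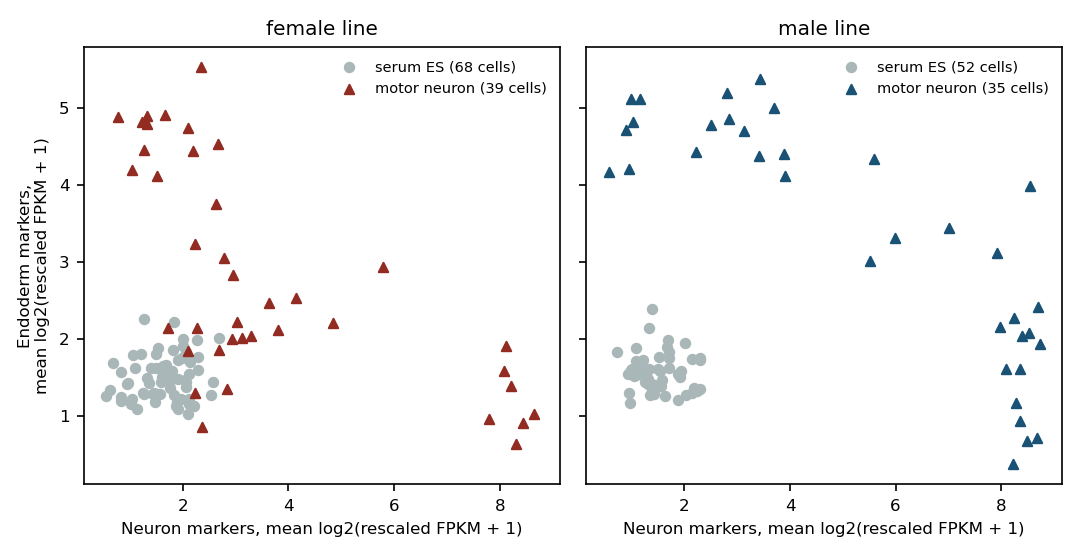
Neuron marker score (horizontal) against endoderm marker score (vertical) for each cell of the female (left) and male (right) line, in grey for serum ES and in colour for motor neuron cells. Motor neuron cells spread from a high neuron and low endoderm score to the reverse, and serum cells reach at most 2.70 on the neuron axis.

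Called genes split along the same line. Of the 2159 genes called higher outside the marker lists, 1403 (64.98%) correlated more with the neuron than with the endoderm score in both motor neuron cultures and 551 (25.5%) the reverse, against 32.7% and 32.8% of uncalled genes. Of the 1606 genes called lower, 214 (13.3%) were nearer to the neuron score and 943 (58.7%) to the endoderm score. For a list, the mean log2(rescaled FPKM + 1) over its tested genes outside the neuron, endoderm and pluripotency markers was used. Spearman's correlation with the neuron score was 0.66 and 0.87 for the Hox genes, and with the endoderm score 0.84 and 0.78 for laminins and 0.69 and 0.79 for lysosomal genes. The neuron score also went with the number of genes detected (rho 0.33 and 0.49), whose part was not tested.

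The label of the cultures was met in part by its markers. All 14 neuron markers rose, their sum going from 297.4 and 215.9 to 3159 and 6065, but single motor neuron cells ranged from 18.6 to 17050 and from 9.16 to 17500. Of 6 motor neuron markers tested 5 rose (11.5 and 8.40 against 322.2 and 514.8). Isl2 was not called, Mnx1 stood at 1.17 and 0.522, and Lhx3 was listed at 0.015 and 0. Of 4 interneuron markers tested none was called, and Slc32a1 and Sox14 were listed at 0 in both motor neuron cultures. Of 8 neural progenitor markers tested 3 rose and 1, Pax6, fell: Vim went from 143.6 and 90.97 to 1128 and 369.3, Fabp7 from 0.0079 and 0.17 to 43.2 and 96.5, and Nkx6-1 from 0.090 and 0.075 to 1.59 and 3.58. The progenitor sum went from 188.6 and 137.6 to 1199 and 478.7. Of 4 glial markers tested Pdgfra rose and Olig1 fell, and their sum stood at 27.2 and 33.7 in serum against 22.4 and 23.3. Ngfr, on the neural crest list, rose, with Sox10 at 0.135 and 0. Fibroblast markers summed to 13.9 and 8.81 in serum and to 140.1 and 2.41 after differentiation, mesoderm and muscle markers to 24.7 and 33.7 against 26.2 and 4.73, and blood and endothelium markers to 18.2 and 26.3 against 6.30 and 5.89. The part of these other cell types in the results was not tested.

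Genes of lysosomes and vesicle traffic were called higher in part. Of 43 lysosomal genes 19 rose and none fell (median 1.30). Ctsh, a cathepsin, stood at 1.44 and 0.524 in serum and rose by 6.24 in the female and 7.18 in the male line (log2 change 6.71 ± 0.49 SE, adjusted p = 0.00298). Ctsl went from 84.8 and 84.7 to 498 and 1042, and Lgmn, legumain, from 26.3 and 25.7 to 152.9 and 168.8. Of 20 subunits of the V-ATPase, the pump that acidifies vesicles, 7 rose, led by the neuronal subunit Atp6v1g2 (0.584 and 1.40 against 8.37 and 44.6). Of 24 tetraspanins 12 rose, with Tspan8 at 0.951 and 0.415 against 29.6 and 35.8. Of 51 Rab GTPases 16 rose and 3 fell: Rab6b, of Golgi traffic in neurons, went from 0.127 and 0.485 to 23.4 and 26.6, while Rab25, of epithelial recycling, fell from 18.01 and 26.1 to 0.712 and 0. Of 30 autophagy genes 8 rose and 1 fell, with Gabarapl1 and Map1lc3a, coats of the autophagosome, rising by 2.69 ± 0.47 SE and 2.19 ± 0.23 SE. Within the motor neuron cultures lysosomal genes went with the endoderm score and V-ATPase genes with the neuron score (rho 0.43 and 0.80). The medians were above 0 under every scaling. Higher calls were 36.5% of the genes of these lists, 12.0% and 4.79% without the female and the male serum culture, 21.6% without the male motor neuron culture, 21.6% with the 4 cultures alone, and 67.1% on the deposited scale.

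Genes of cell cycle exit and imprinted genes were called higher in part. Of 19 exit genes 8 rose and none fell (median 1.68). Cend1, which promotes exit in neural precursors, went from 1.32 and 1.84 to 36.9 and 82.1, Cdk5r1, the activator of the neuronal kinase Cdk5, from 0.188 and 0.103 to 4.94 and 8.18, and Cdkn2d, a CDK inhibitor, from 19.4 and 26.5 to 68.5 and 123.5. Of 36 imprinted genes 13 rose and none fell (median 1.19). Nnat, neuronatin, went from 5.497 and 14.0 to 717 and 1523 (log2 change 6.73 ± 1.34 SE, adjusted p = 0.0165), Nap1l5 from 1.49 and 0.746 to 14.7 and 68.97, and Ndn, necdin, from 21.04 and 11.8 to 96.8 and 358. In the insulin-like growth factor system 2 of 13 rose and 1 fell, also near the background. Igf1 rose to 11.0 and 22.3, and Igf2bp1, an RNA-binding protein of embryonic cells, fell from 160.5 and 147.7 to 28.5 and 27.1. Of 25 cholesterol synthesis genes 4 rose (16%, near the 14.1% of all genes), and of 27 fatty acid genes 7 rose and 1 fell, the elongases Elovl4, Elovl1 and Elovl2 and the desaturase Scd2 leading. B2m, the light chain of MHC class I, went from 26.8 and 34.2 to 365 and 222. The medians of all these lists were above 0 under every scaling, and their 37 higher calls became 4 and 1 without the female and the male serum culture, 23 without either 2i culture or the female motor neuron culture, and 69 on the deposited scale.

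Of the genes that hold ES cells pluripotent, none of the core list rose. Of 26 core and naive factors 12 fell (median -3.14), and of 43 effectors 11 (median -3.24). With the line as replicate block 16 and 18 were called, without the male motor neuron culture 4 and 4, and without one or the other serum culture none. Otx2 went from 27.9 and 27.5 to 1.13 and 0, Tfap2c from 27.8 and 28.2 to 4.34 and 0, and Alpl, the alkaline phosphatase by which ES colonies are stained, from 69 and 73.98 to 8.13 and 0.578. Sox2 stood at 33.2 and 34.4 against 5.69 and 0.623 and was not called (adjusted p = 0.0969, and 0.0468 with the block). The same held for Utf1, Esrrb and Fgf4, whose adjusted p went from 0.0606, 0.0597 and 0.0819 to 0.0406, 0.0466 and 0.0453. The 10 pluripotency markers summed to 5454 and 5962 in serum and to 711 and 39.2 after differentiation. Stmn2 and Pou5f1 were both detected in 17 of 39 female and 2 of 35 male motor neuron cells. Stmn2 was also detected in 100% of the cells of both serum cultures, at 210.4 and 148.8. This joint count therefore only restates the 17 and 2 cells with Pou5f1 and does not mark neurons that keep it.

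Few germline and epithelial genes of ES cells passed the test. Of 29 germline genes 5 fell (17.2%, against 10.4% of all genes) and 1 rose, with Dazl going from 14.9 and 13.1 to 1.04 and 0 and Prdm1 from 6.36 and 4.48 to 0.744 and 0.368. Of 28 epithelial adhesion genes 5 fell (17.9%) and 1 rose: Epcam went from 201 and 230.9 to 34.4 and 27.9, Esrp1, an epithelial splicing factor, from 16.1 and 11.7 to 1.25 and 0.641, and Grhl2 from 7.94 and 7.90 to 1.47 and 0.022. That list's median was -0.45 but 0.10 on the deposited scale. Among signals of pluripotent culture Lefty2 fell by 4.24 and Lef1 fell by 3.35, while Lifr, the LIF receptor, rose from 2.67 and 3.05 to 13.2 and 43.97. The median of that list was -0.58 but 0.15 on the deposited scale. The core, effector, germline and microRNA medians were below 0 under every scaling, but the microRNA median was only -0.29 with log2 values averaged over cells. The 44 lower calls of these lists, the microRNA genes included, became 5 and 2 without the female and the male serum culture, 18 without the male motor neuron culture, 24 without either 2i culture, 79 without either or both Epi cultures, and 72 with log2 values averaged over cells.

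Replication and division genes were called lower in large part. Of 51 genes of replication initiation and forks 37 fell and none rose (median -1.45). Mcm10 went from 57.4 and 79.4 to 15.4 and 7.74, Mcm2, of the replicative helicase, from 139.5 and 172.8 to 36.9 and 26.3 (log2 change -2.28 ± 0.27 SE, adjusted p = 0.00519), and Pold2, of polymerase delta, from 219 and 219.9 to 58.7 and 43.7. Pole2, Mcm5, Mcm6 and Cdt1, whose promoter stretches are printed, fell by 1.83, 1.77, 1.74 and 1.68. Of 53 mitosis genes 26 fell (median -1.09), with Pttg1, securin, going from 350.5 and 491 to 159.1 and 55.2 and Mad2l1, of the spindle checkpoint, from 162.8 and 180.2 to 52.6 and 49.5. Of 20 centromere proteins 10 fell (median -1.10).

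Supply, repair and histone genes were also called lower in part. Of 36 nucleotide synthesis genes 24 fell (median -1.29), with Mthfd2, of folate metabolism, going from 168.5 and 123.1 to 34.8 and 26.1. Gart, of purine synthesis, fell by 2.04 ± 0.38 SE. Of 38 recombination and Fanconi genes 18 fell (median -1.18), with Chek1, a checkpoint kinase, at 69.3 and 88.1 against 19.7 and 12.8, and of 22 mismatch and base excision genes 8 (median -0.90), with Ung at 114.2 and 145.9 against 29.1 and 5.71. Histones divided: 12 of 34 fell, led by the linker histone Hist1h1b (12.6 and 23.9 against 1.37 and 1.06), and 3 rose, Hist3h2a, Hist3h2ba and Hist1h2bc. Ccne1, cyclin E1, went from 258.3 and 337.9 to 62.3 and 18.2, and Mycn from 128.9 and 156.9 to 49.9 and 44.4. These medians were below 0 under every scaling, but condensin and cohesin, with 4 of 21 lower and a median of -0.73, turned to 0.12 on the deposited scale. Lower calls were 49.5% of the genes of these lists, 13.1% and 1.35% without the female and the male serum culture, 31.6% without the male motor neuron culture, 30.6% with the 4 cultures alone, 31% with cells rescaled to an equal sum, and 8.75% on the deposited scale.

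Ribosomal protein genes had the highest share of lower calls of the 99 lists. Of 78 cytosolic ribosomal protein genes 71 fell and none rose (91.03% lower, median -1.52). Rps13 went from 67.9 and 77.6 to 18.6 and 12.6 (log2 change -2.17 ± 0.25 SE, adjusted p = 0.00519). Rps4x fell by 2.16 ± 0.38 SE, and Rpl39, Rplp2, Rpl18 and Fau, whose start site stretches are printed, fell by 1.99, 1.86, 1.73 and 1.70. Summed over the list, deposited FPKM without scaling were 50890 and 52210 in serum and 35880 and 30760 after differentiation. The median was below 0 under every scaling, -0.70 on the deposited scale, but 5 genes were called there, 23 with the 4 cultures alone, and 14 and 5 without the female and the male serum culture. Reads of these genes can also come from processed pseudogenes, near copies of their mRNAs: of 842 such pseudogenes tested 21.02% were called lower and 1.07% higher.

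The assembly of ribosomes and their use fell alongside. Of 75 ribosome biogenesis genes 56 fell and none rose (median -1.46). Dkc1, the pseudouridine synthase of snoRNPs, went from 472 and 444 to 77.4 and 66.9, Npm1, nucleophosmin, from 1011 and 949 to 318 and 127.2, and Ebna1bp2 from 531 and 402 to 114.6 and 85.9. Of 382 snoRNA genes 58 were called lower and 5 higher, in libraries not made to capture them. Of 77 mitochondrial ribosomal proteins 21 fell (median -0.70, but 0.15 on the deposited scale). Of 37 aminoacyl-tRNA synthetases 16 fell (median -0.95), with Lars at 78.5 and 63.6 against 18.7 and 20.6. Of 52 translation factors 21 fell and 2 rose (median -0.85), with Eif1ax at 587 and 300.3 and Eef1b2 at 3561 and 3675 in serum against 130 and 81.6 and 1323 and 866; Eif4g3 and Eif4e3 rose, by 1.93 and 1.54. Of 27 genes of the amino acid stress response 11 fell, among them Trib3 (59.2 and 43.96 against 4.62 and 3.30). The biogenesis, synthetase and stress medians were below 0 under every scaling. Lower calls were 56.6% of the genes of the ribosome and translation lists, 10.4% and 2.31% without the female and the male serum culture, 27.2% with the 4 cultures alone, 37.3% with cells rescaled to an equal sum, and 7.23% on the deposited scale.

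RNA and protein handling genes fell in part. Of 81 spliceosome and hnRNP genes 22 fell and 2 rose (median -0.80), of 40 nuclear pore and import genes 14 fell (median -0.90, below 0 under every scaling), and of 60 chaperone genes 13 fell and 5 rose (median -0.24). Of 47 proteasome genes 4 fell (8.51%, against 10.4% over all genes), among them the assembly factors Psmg1, Psmg2 and Psmg4 and the immunoproteasome subunit Psmb10. Spliceosome, chaperone and proteasome medians turned to 0.04, 0.44 and 0.26 on the deposited scale. Ran, the GTPase of nuclear transport, went from 3184 and 3043 to 911 and 830.3, and Hsp90aa1, a chaperone, from 2710 and 2948 to 881 and 676. Srsf12 and Hspa12a, a splicing factor and a chaperone, rose by 2.74 ± 0.46 SE and 3.13 ± 0.33 SE. The 53 lower calls of these lists became 11 and 3 without the female and the male serum culture, 31 with the 4 cultures alone, 27 and 31 with cells rescaled to an equal sum or protein-coding sum, and 3 on the deposited scale.

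**Figure D4:**
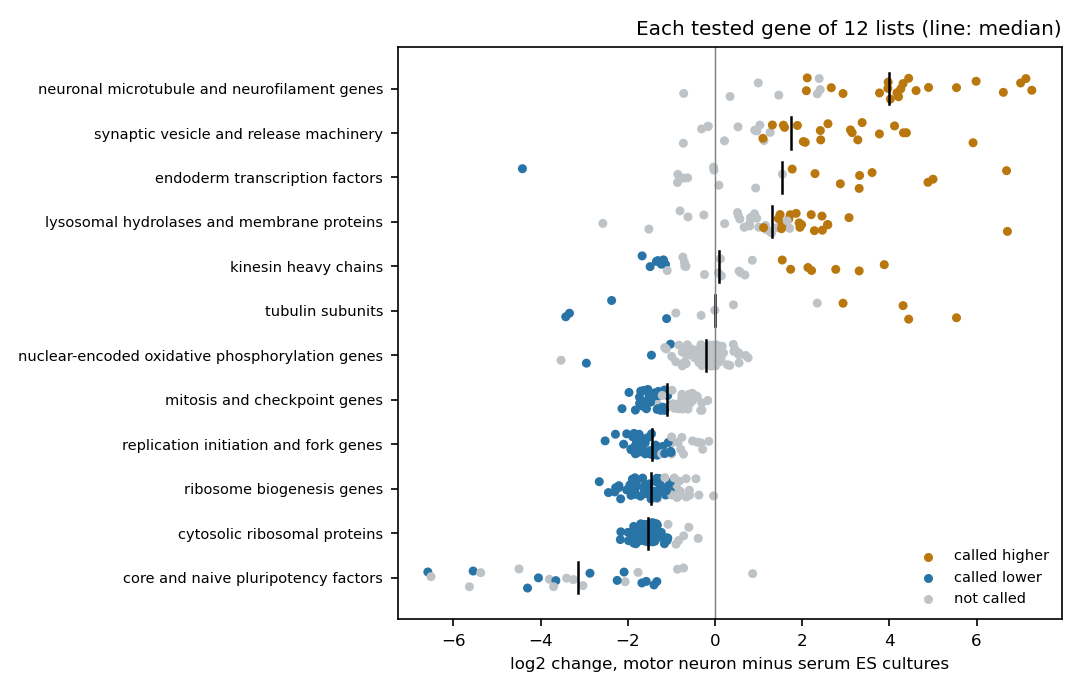
Log2 change (motor neuron minus serum ES) of each tested gene in 12 lists, ochre where called higher, blue where called lower and grey where not called, with the median as a line. Ribosomal protein genes have a median of -1.52, microtubule and neurofilament genes spread up to 7.27 (Nefm), and kinesins and tubulins hold genes called in both directions.

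Kinesins and tubulins held genes called in both directions. Of 27 kinesins 7 rose and 7 fell. Among those that rose are carriers of axonal cargo: Kif5c went from 3.01 and 2.30 to 49.9 and 55.7 and Kif5a from 0.339 and 0.612 to 9.91 and 18.4. Kif18a, Kif14, Kif11 and Kif2c, which work in the spindle, were among those that fell, with Kif11 going from 23.5 and 28.5 to 8.81 and 10.5. The median was 0.08, but -0.08 with log2 values averaged over cells. Of 13 tubulins 4 rose, Tubb4a, Tubb2a, Tubb3 and Tuba1a, and 4 fell, Tuba3a, Tuba3b, Tuba4a and Tuba1b; Tuba3a and Tuba3b are near-identical copies whose reads may be split. The tubulin median was at 0.00, 0.86 on the deposited scale and -0.26 with log2 values averaged over cells. Of 27 subunits of the BAF remodeller 3 rose and 1 fell. Actl6b, the neuronal subunit, went from 0.152 and 0.286 to 12.8 and 46.6 (log2 change 4.39 ± 0.58 SE, adjusted p = 0.00626), and Actl6a, its counterpart in dividing progenitors, from 313.5 and 307.5 to 101.4 and 92.8 (log2 change -1.67 ± 0.17 SE, adjusted p = 0.00466). Smarca2 and Smarcc2 rose by 4.02 ± 0.53 SE and 2.16 ± 0.28 SE. Without the female and the male serum culture, 7 and 4 of the 11 higher and 2 and 1 of the 11 lower kinesin and tubulin calls were made. The lower calls were 6 without either 2i culture, 7 without the female motor neuron culture and 2 on the deposited scale.

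Of the genes of the chromatin lists 12.1% were called higher and 12.8% lower, near the 14.1% and 10.4% of all genes. Dnmt3b and Dnmt3a, the de novo DNA methyltransferases, went from 78.9 and 101.3 to 8.36 and 2.49 and from 198 and 301.2 to 48.2 and 25.4, Tet1, which oxidises methylcytosine, from 44 and 45.8 to 7.51 and 6.63, and Uhrf1 from 48.1 and 67.7 to 14.0 and 16.4. Of 17 genes of DNA methylation 4 fell and 1 rose, Mbd1. Of 32 Polycomb genes 6 rose, led by Cbx8 and Pcgf5, and 5 fell, among them Phc1, Jarid2, Mtf2 and Ezh2 (51.6 and 88.2 against 29.9 and 19.2); with the block 10 fell. The Polycomb median was -0.29, but 0.46 on the deposited scale. Of 49 lysine methyltransferases and demethylases 4 rose and 6 fell, and of 17 deacetylases 3 rose and 2 fell, with Hdac1 going from 57.9 and 52.9 to 21.2 and 18.9. The chromatin lists together, with 17 higher and 18 lower calls, gave 2 and 4 when the female serum culture was left out and 0 and 2 when the male one was, 8 and 11 without either 2i culture, 45 and 8 on the deposited scale, and 6 higher with the 4 cultures alone. Without the male motor neuron culture 10 were lower.

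Families of energy metabolism, cilia and zinc fingers held few called genes, with shares mostly under the 14.1% higher and 10.4% lower of all genes. Of 78 nuclear genes of oxidative phosphorylation 3 fell (3.85%), and their median was -0.21, but 0.65 on the deposited scale and 0.01 with cells rescaled to an equal sum. Cox8c was listed at 0 in both motor neuron cultures from 7.38 and 6.10, and Cox7c fell from 120.4 and 128.6 to 56.2 and 35.5. No mitochondrially encoded mRNA of 8 tested was called. Glycolysis genes were called both ways: of 29 genes 5 fell, with Gapdh going from 235.7 and 290.3 to 64.8 and 85.3 while Pkm fell by 1.63 ± 0.22 SE, and 4 rose, among them the neuronal enolase Eno2 (0.347 and 8.14 against 23.1 and 36.7), while Eno1 fell from 694 and 692 to 287.7 and 183.4. The median was -0.74, but 0.12 on the deposited scale. Of 37 glutathione and redox genes 3 rose and 6 fell (median -0.64, but 0.21 on the deposited scale): Gpx3, a secreted glutathione peroxidase, rose from 22.1 and 22.1 to 433 and 872, and Prdx1, a peroxiredoxin, fell from 1379 and 1427 to 498.2 and 306.8. Of 29 intraflagellar transport genes 1 rose, of 27 axonemal genes 2, and of the Zfp genes tested 15 rose and 20 fell (4.63% and 6.17%). Medians of these 3 lists were -0.02, 0.02 and -0.10, but 0.72, 0.76 and 0.60 on the deposited scale, where the median gene shifted by 0.71, and the axonemal median was -0.02 with log2 values averaged over cells. Without the female and the male serum culture 2 and 2 of the higher and 2 and 0 of the lower Zfp calls were made, and 7 and 4 without either 2i culture. The metabolic lists together gave 7 higher and 14 lower calls, and 1 and 6 when the female serum culture was left out, 2 and 1 when the male one was, 3 and 9 when the female 2i culture was, 4 and 9 when the male one was, 4 higher without the female and 8 lower without the male motor neuron culture, and 32 higher and 2 lower on the deposited scale.

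**Figure D5:**
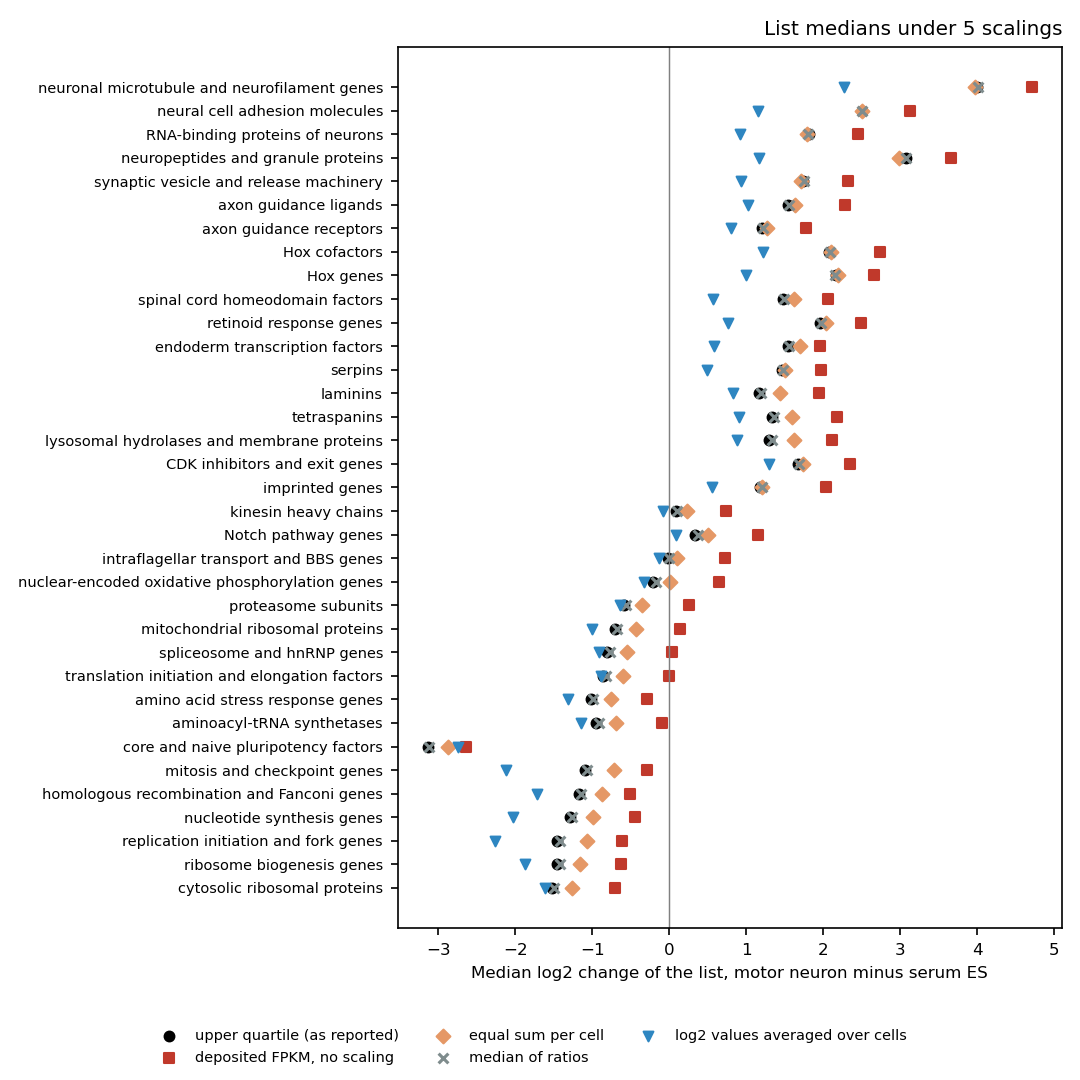
Median log2 change of each list under 5 scalings: upper quartile as reported (black circles), deposited FPKM (red squares), equal sum per cell (orange diamonds), median of ratios (grey crosses) and log2 values averaged over cells (blue triangles). Deposited values lie to the right of the reported ones. The microtubule list stays right of 0 and the cytosolic ribosomal proteins left of it, while lists such as the proteasome (-0.58 and 0.26), mitochondrial ribosomal proteins (-0.70 and 0.15) and kinesins cross it.

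Called genes also differed in size. Protein-coding genes called higher spanned a median of 32720 bases with 4780 exonic bases, those called lower 16310 and 3634, and all 12398 tested 23820 and 4383. No test of this difference was made, and its part in the calls was not tested.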

How the data were processed

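Values were FPKM per gene and cell, deposited by the authors as 1 table of 447 cells and 43628 genes. The submitters' processing notes name STAR 2.4.1, Cufflinks, Cuffnorm 2.2.1 and mm10, with no role or order given. Cells were mapped to cultures by their labels, and no value column was without a sample. Low values fell on whole read steps in only 46.7% of cases (within 0.05 reads), so reads were not recovered, absolute depth is unknown, and no count test was run. Relative reads per cell, with female serum at 1, had medians of 0.863 for male serum, 1.29 for female and 1.22 for male motor neuron cells.

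Each culture's mean was scaled by its upper quartile (factors 1.26 and 1.16 for serum, 0.739 and 0.595 for motor neuron cultures). Genes averaging 1 FPKM or more across 8 cultures (2i, serum, Epi and motor neuron, each female and male) were tested on log2(value + 1) with limma 3.58.1 (R 4.3.3, trended variance, 4 residual degrees of freedom) and Benjamini-Hochberg adjustment. Tables and figures used Python 3.11.15, pandas 2.3.3, SciPy 1.17.1 and matplotlib 3.10.9. Gene coordinates are GRCm38, the assembly of mm10, for 42462 genes matched to GENCODE. Genes were named by rule: the 12 largest called changes in each direction among protein-coding genes with changes of one sign in the female and male line and a mean of at least 10 FPKM in the higher state of each, up to 4 called members of each list in each direction, and the cell type markers; other members named were chosen after their values were seen. The lists and the comparison were chosen with earlier results of these data known, so counts over lists are descriptions.

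Cultures of the 2 states come from the same 2 lines by the labels, so the line pairs them. Deviations of the lines correlated at r = 0.14 between serum and motor neuron cultures over 15504 genes, and at 0.059 to 0.15 over the 6 pairs of states. Alternatives covered scaling, pseudocount, filter, cells used, cultures left out and the line as replicate block.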

Additional observations from a re-analysis of the deposited data

Results flagged for a closer look

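In the following lists the median log2 change had opposite signs in the female and the male line, each a single culture per state. The difference between the lines was not tested for any of them. It was 0.26 in the female and -0.47 in the male line for kinesin heavy chains, -0.39 and 0.045 for tubulins, 0.34 and -0.50 for hedgehog genes, and 1.14 and -0.056 for frizzled receptors and Wnt antagonists. Secreted plasma proteins gave 0.996 and -0.097, claudins 0.15 and -1.99, and collagens 2.21 and -0.25. Intraflagellar transport genes gave 0.20 and -0.18, axonemal genes 0.036 and -0.15, and signals of pluripotent culture 0.079 and -0.81. Deacetylases and sirtuins gave -0.035 and 0.51, mitochondrially encoded mRNAs 0.49 and -0.31, and basic helix-loop-helix factors 0.68 and -0.33. The summed level of marker lists also moved in opposite directions, by 1.33 and -0.29 log2 units for interneuron markers, 0.081 and -2.60 for mesoderm and muscle markers, 3.24 and -1.53 for fibroblast markers and 0.24 and -2.36 for feeder or trophoblast markers.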

How the results depend on the processing

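Of 2183 higher and 1611 lower genes (14.1% and 10.4% of genes tested), none was called in the opposite direction under any alternative run. On the deposited scale 30.1% were called higher and 2.70% lower, with cells rescaled to an equal sum 6.40% were lower, with log2 values averaged over cells 9.18% were higher, without the low-value filter 3.08% of 33861 genes were lower (1044 genes), and with the 4 cultures alone 8.13% and 6.48% were called. Leaving out 1 culture at a time gave 1.47% to 15.5% higher and 0.49% to 13.0% lower, both lowest without the male serum culture. With the line as replicate block 2233 were higher and 1776 lower (14.4% and 11.5%), of which 2062 and 1535 were also called without the block. Of 427 called genes named by the rules, 350 were still called with log2 values averaged over cells and 77 without the male serum culture. The cause of these shifts was not tested, except that the filter sets how many genes are tested. With 2 cultures a side the precision is limited by their number, and a gene left uncalled is not shown to be unchanged.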
